A study of Mus musculus with 9 samples.

Results

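Presentation of antigen by the major histocompatibility complex (MHC) was followed through 9 genes in whole-kidney RNA. H2-K1, H2-D1, B2m and Tap1 stand for class I, and H2-Aa, H2-Ab1, H2-Eb1, Cd74 and Ciita for class II. The genes were chosen by name, with earlier results of these data known. All 9 were found among the 22637 symbols of the deposited tables and all 9 passed the filter on low counts that left 17315 genes for testing. RNA came from kidneys of 129X1/SvJ mice aged 9 weeks, in 3 groups of 3 libraries. KO_antimiR21 mice lacked Col4a3 (Col4a3-/-) and were given antimiR-21, an inhibitor of the microRNA miR-21. KO_PBS mice had the same genotype and were given PBS. WT mice were wild type with no treatment, so that genotype and injection cannot be told apart in either comparison with WT. Col4a3 encodes a chain of the type IV collagen of the glomerular basement membrane, and its loss is a mouse model of Alport syndrome. The labels state neither the dose and schedule of injection, nor how the knockout allele was made, nor whether each library came from its own animal. The p-values therefore measure the spread between these libraries, which may be technical.

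Class I molecules carry peptides made by the proteasome from proteins of the cell itself and show them to CD8+ T cells. Nearly all cells with a nucleus make them, and interferons raise their expression. Class II molecules carry peptides cut in endosomes and show them to CD4+ T cells. Dendritic cells, B cells and activated macrophages make them, and interferon-gamma can induce them in other cells, kidney tubule and endothelial cells among them. Ciita is the coactivator that switches on the class II genes and Cd74. In bulk kidney RNA, fewer cells of a type and less RNA per cell cannot be told apart, and the cell that made a transcript is not seen.

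Library depth was 26448275 to 31786624 expected counts. The 9 genes together took 0.331% to 0.806% of the counts in the KO_antimiR21 libraries, 0.659% to 0.899% in KO_PBS and 0.144% to 0.149% in WT, and the smallest single count behind a value was 91.7 reads, for Ciita in WT 3. Col4a3 itself stood at 104, 70.6 and 138 CPM (the count scaled by its TMM-adjusted library total) in KO_antimiR21 1, 2 and 3 and at 44.3, 94.3 and 60.2 CPM in KO_PBS, against 371, 257 and 316 CPM in WT. No knockout library reached the range of WT. Y-linked transcripts were near 0 in WT 1 and WT 3, which were female, and the remaining 7 libraries were male. The deposited names also carry a code that no source used here explains. It was L5 for KO_antimiR21 1 to 3 and KO_PBS 3, and L4 for KO_PBS 1 and 2 and all WT libraries. Thus sex is mixed in WT alone, and the 6 knockout libraries share it. A fit with sex as a covariate therefore sets the knockout libraries against the male WT 2 alone. In KO_antimiR21 over WT the group and the code cannot be told apart, since every library of 1 group differs in code from every library of the other. With the code as a covariate that comparison rests on KO_PBS, the only group with both codes.

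Promoter sequence was read for the members that the RefSeq promoter table (GRCm38.p6) holds: H2-K1, H2-D1, B2m, Tap1, H2-Aa and H2-Eb1. H2-Ab1, Cd74 and Ciita were not matched. The promoters of 2 class II chains and 2 class I genes are shown because class II promoters are known for a row of boxes read by the RFX, CREB and NF-Y proteins on which Ciita acts, while class I promoters carry elements for NF-kappaB and interferon regulatory factors as well. Each runs over the 250 bases before the annotated start, 5′ to 3′ on the gene's strand. Capitals mark matches, on either strand, to GCAACT (X-box core), GATTGG (Y box), TGACG (X2 core), GGGNNTTCC (kappaB) and TTTCANTT (interferon element). H2-Aa lies at chr17:34287824-34288073 on the minus strand, H2-Eb1 at chr17:34305617-34305866 on the plus strand, H2-D1 at chr17:35262844-35263093 on the plus strand and B2m at chr2:122147437-122147686 on the plus strand.
H2-Aa: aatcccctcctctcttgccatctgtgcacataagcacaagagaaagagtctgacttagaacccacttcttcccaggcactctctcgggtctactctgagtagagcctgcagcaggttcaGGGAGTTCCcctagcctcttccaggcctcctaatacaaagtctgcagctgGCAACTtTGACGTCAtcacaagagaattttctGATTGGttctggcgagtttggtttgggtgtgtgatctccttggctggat
H2-Eb1: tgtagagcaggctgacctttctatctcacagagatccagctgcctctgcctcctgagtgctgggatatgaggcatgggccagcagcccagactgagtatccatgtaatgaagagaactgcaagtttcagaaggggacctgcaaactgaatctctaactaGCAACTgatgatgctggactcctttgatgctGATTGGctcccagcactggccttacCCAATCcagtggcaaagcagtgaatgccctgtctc
H2-D1: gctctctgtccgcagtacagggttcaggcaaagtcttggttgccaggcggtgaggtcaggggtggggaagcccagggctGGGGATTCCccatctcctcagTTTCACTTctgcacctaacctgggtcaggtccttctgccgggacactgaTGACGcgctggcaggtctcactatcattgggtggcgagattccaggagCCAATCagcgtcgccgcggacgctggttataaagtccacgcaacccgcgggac
B2m: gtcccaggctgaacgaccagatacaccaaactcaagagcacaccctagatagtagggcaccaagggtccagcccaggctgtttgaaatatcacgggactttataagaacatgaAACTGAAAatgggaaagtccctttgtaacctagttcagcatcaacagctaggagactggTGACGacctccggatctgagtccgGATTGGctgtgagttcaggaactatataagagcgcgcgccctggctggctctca
Both class II promoters held GCAACT followed by GATTGG, and H2-Eb1 had no TGACG. These letters were not particular to class II: the class I gene Tap1, not printed, held CCAATC at -222 to -217, GCAACT at -196 to -191 and TGACG at -86 to -82. H2-K1, also not printed, held GGGGATTCC at -111 to -103, TTTCACTT at -90 to -83 and TGACG at -41 to -37. In H2-Aa the first lay at -81 to -76 and the second at -49 to -44 from the start, with TGACG at -74 to -70 between them and its reverse complement overlapping it at -71 to -67. H2-Aa also had GGGAGTTCC, a kappaB match, at -131 to -123. In H2-Eb1 the pair lay at -91 to -86 and -60 to -55, with CCAATC, the Y box read on the other strand, at -35 to -30. H2-D1 had GGGGATTCC at -171 to -163, TTTCACTT at -150 to -143, TGACG at -101 to -97 and CCAATC at -53 to -48. B2m had AACTGAAA, the interferon element on the other strand, at -137 to -130, TGACG at -78 to -74 and GATTGG at -54 to -49. Of 32851 promoters of this length, 9.01% held GCAACT, 14.6% GATTGG, 17.8% TGACG, 4.98% GGGNNTTCC and 5.70% TTTCANTT. The motifs are short and were chosen with these sequences in view, so a match is a description of letters and no evidence of binding.

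Knockout and WT kidneys were compared first. All 4 class I genes were higher in both knockout groups than in WT. H2-K1, a classical heavy chain that binds the peptide, stood at 832, 1071 and 568 CPM in KO_antimiR21 1, 2 and 3, at 979, 756 and 831 CPM in KO_PBS and at 226, 289.6 and 280.1 CPM in WT. H2-D1, the second classical heavy chain measured, stood at 623, 729.8 and 420.25 CPM in KO_antimiR21, at 629.8, 594 and 580.15 CPM in KO_PBS and at 179.7, 240.2 and 224 CPM in WT. Neither heavy chain had a knockout library within the range of WT, while the knockout groups overlapped each other. RSEM shares reads among near-identical class I genes, so values of single heavy chains are uncertain. B2m, the light chain shared by the class I heavy chains, stood at 737, 868 and 567.5 CPM in KO_antimiR21, at 776, 741 and 625 CPM in KO_PBS and at 319, 322 and 294 CPM in WT. Tap1, a subunit of the transporter that moves peptides into the endoplasmic reticulum, stood at 22.03, 36.7 and 17.2 CPM in KO_antimiR21, at 32.7, 30.2 and 33.3 CPM in KO_PBS and at 9.96, 7.86 and 7.16 CPM in WT. For these genes too every knockout library lay above every WT library.

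In KO_PBS over WT, the log2 fold change was 1.69 ± 0.25 (SE) for H2-K1, 1.49 ± 0.22 for H2-D1, 1.20 ± 0.19 for B2m and 1.95 ± 0.27 for Tap1, with edgeR adjusted p of 0.00239, 0.00247, 0.00306 and 0.00206. These are folds of 3.22, 2.80, 2.29 and 3.85. In KO_antimiR21 over WT it was 1.63 ± 0.24 for H2-K1, 1.46 ± 0.22 for H2-D1, 1.22 ± 0.19 for B2m and 1.60 ± 0.27 for Tap1 (edgeR adjusted p = 0.00561, 0.0056, 0.00622 and 0.00873). With sex as a covariate edgeR called 0 of these 4 genes in either comparison, with adjusted p of 0.0566 to 0.0728 in KO_PBS and 0.179 to 0.1801 in KO_antimiR21. With the library code as a covariate 4 of 4 were called in KO_PBS and 0 in KO_antimiR21, whose libraries all differ from WT in code. B2m had the smallest estimate of the 9 genes in both comparisons.

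All 5 class II genes were higher in both knockout groups as well. H2-Aa, the alpha chain of the I-A molecule, stood at 769, 798 and 329 CPM in KO_antimiR21 1, 2 and 3, at 1005, 690.0 and 779 CPM in KO_PBS and at 105, 119 and 110.4 CPM in WT. Its partner H2-Ab1, the beta chain of I-A, stood at 723, 796 and 345 CPM in KO_antimiR21, at 860.4, 682 and 819.9 CPM in KO_PBS and at 196, 169 and 160.4 CPM in WT. For both chains KO_antimiR21 3 was the lowest knockout library and still lay above WT. H2-Eb1, the beta chain of the I-E molecule, stood at 802, 793 and 326 CPM in KO_antimiR21, at 1049.6, 742 and 825 CPM in KO_PBS and at 108, 119 and 118 CPM in WT. Cd74, the invariant chain that fills the class II groove until the molecule reaches the endosome, stood at 1959, 2224.5 and 919 CPM in KO_antimiR21, at 2468, 1851 and 2203 CPM in KO_PBS and at 458, 382 and 363 CPM in WT. KO_antimiR21 3 was again the lowest knockout library for both and lay above WT. Ciita stood at 28.0, 40.3 and 17.8 CPM in KO_antimiR21, at 29.1, 36.2 and 55.3 CPM in KO_PBS and at 7.34, 7.98 and 3.70 CPM in WT. Unlike the chains it was highest in KO_PBS 3 and lowest within that group in KO_PBS 1.

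In KO_PBS over WT, the log2 fold change was 2.89 ± 0.33 (SE) for H2-Aa, 2.17 ± 0.30 for H2-Ab1, 2.93 ± 0.34 for H2-Eb1, 2.44 ± 0.33 for Cd74 and 2.66 ± 0.40 for Ciita, with edgeR adjusted p of 0.00136, 0.00200, 0.00136, 0.00185 and 0.00272. These are folds of 7.41, 4.50, 7.60, 5.42 and 6.34. In KO_antimiR21 over WT it was 2.51 ± 0.33 for H2-Aa, 1.83 ± 0.29 for H2-Ab1, 2.48 ± 0.33 for H2-Eb1, 2.09 ± 0.32 for Cd74 and 2.18 ± 0.40 for Ciita (edgeR adjusted p = 0.00441, 0.00747, 0.00447, 0.00637 and 0.0117). With sex as a covariate 0 of these 5 genes were called in either comparison, with edgeR adjusted p of 0.0553 to 0.0755 in KO_PBS and 0.161 to 0.259 in KO_antimiR21. With the library code as a covariate 5 of 5 were called in KO_PBS and 0 in KO_antimiR21, whose libraries all differ from WT in code. Among the chains, H2-Aa and H2-Eb1 had larger estimates than H2-Ab1 in both comparisons.

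**Figure D1:**
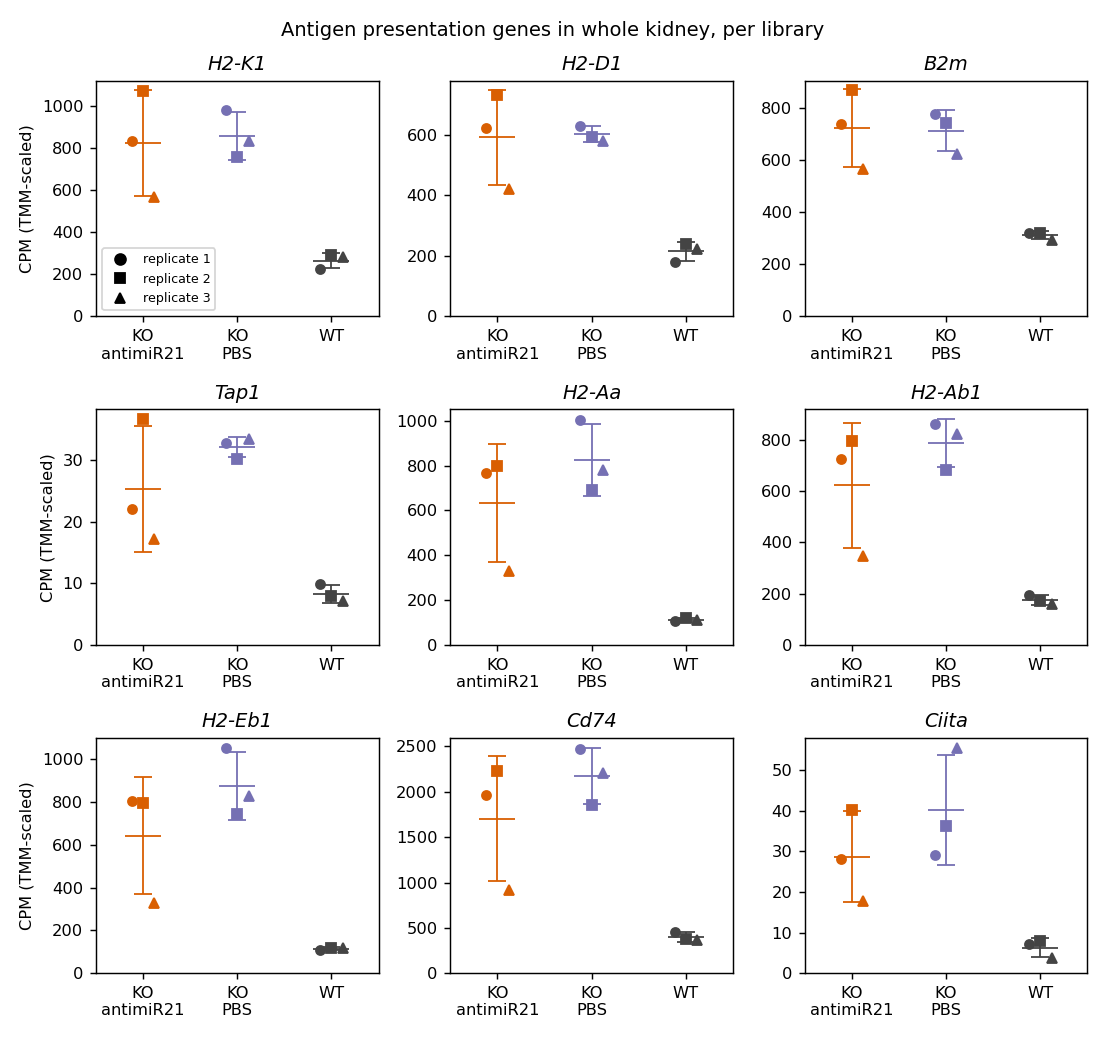
CPM (vertical axis, linear, scaled by TMM) of the 9 genes in KO_antimiR21, KO_PBS and WT libraries. Symbols mark replicates 1, 2 and 3, and the long dash with its bar is the mean ± SD of 3 libraries. Every knockout library lies above every WT library in all 9 panels, and KO_antimiR21 3 is the lowest knockout library of its group.

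Set against all genes, 9 of 9 members passed the test as higher in KO_PBS than in WT, where 14.6% of the 17315 genes tested did. All 9 had knockout and WT libraries that did not overlap, where 22.6% of genes stood higher in KO_PBS without overlap. The median log2 fold change was 2.17 over the members (1.59 for class I and 2.66 for class II) and -0.03 over all genes. In KO_antimiR21 over WT, 9 of 9 were again called higher, where 6.72% of genes were, and 9 of 9 did not overlap, where 14.6% of genes were higher without overlap. The medians there were 1.83 over the members (1.53 for class I and 2.18 for class II) and -0.04 over all genes. These comparisons share the WT libraries, so their agreement is not a second measurement. The members were chosen with earlier results of these data known and moved closely together, so 9 of 9 are not 9 separate outcomes.

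Sex as a covariate left 0 of all genes called in KO_PBS over WT. The members' log2 fold changes were 1.15 to 2.87 with it and 1.20 to 2.93 without it. WT 2 is the only male WT library, so the fit with sex also sets the knockout libraries against it alone. Among male libraries alone, with WT 2 as the lone WT library and assumed to vary like the other groups, the changes were 1.18 to 2.90 and adjusted p 0.0734 to 0.0998. In KO_antimiR21 over WT 0 members were called under either choice, with changes of 1.17 to 2.43 with the covariate. Within the L4 libraries, which hold KO_PBS 1 and 2 and all WT, all 9 members were called, with changes of 1.29 to 2.97 and adjusted p of 0.00423 to 0.0111 in edgeR. The L5 libraries hold no WT. With the code as a covariate KO_antimiR21 over WT had 0 members called, at changes of 1.42 to 2.63 and adjusted p of 0.244 to 0.45.

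The third comparison asked whether the miR-21 inhibitor moved these genes within the knockout. No difference passed the test: 0 of 9 members were called in KO_antimiR21 over KO_PBS, and 0.0% of all genes were. At an unadjusted p under 0.05 edgeR had 1203 genes and 0 members. DESeq2 called 18 genes and 0 members, and limma called 0 genes. The median log2 fold change was -0.34 over the members and -0.01 over all genes. The groups overlapped for 9 of 9 genes.

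**Figure D2:**
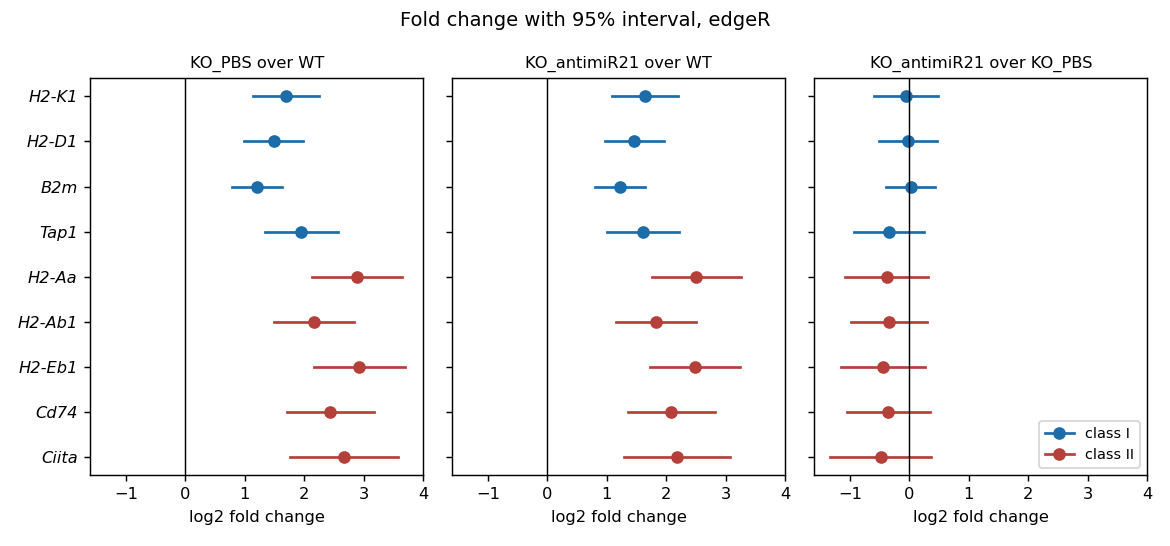
Log2 fold change (horizontal axis) with its 95% interval from edgeR for each gene, in KO_PBS over WT, KO_antimiR21 over WT and KO_antimiR21 over KO_PBS. Class I genes are blue and class II genes red. Intervals against WT lie above 0, and all intervals between the knockout groups cross 0.

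Between the knockout groups the log2 fold change was -0.05 for H2-K1 (95% interval -0.59 to 0.49), -0.02 for H2-D1 (-0.51 to 0.46) and 0.02 for B2m (-0.39 to 0.44), at edgeR adjusted p of 0.984, 0.993 and 0.993. The sign of these 3 estimates changed when single libraries were left out. For Tap1 it was -0.34 (-0.93 to 0.25) at an adjusted p of 0.807. For the class II genes the estimates were all below 0: -0.38 for H2-Aa (-1.09 to 0.32), -0.34 for H2-Ab1 (-0.99 to 0.30), -0.45 for H2-Eb1 (-1.16 to 0.27), -0.35 for Cd74 (-1.05 to 0.34) and -0.49 for Ciita (-1.33 to 0.36). Their edgeR adjusted p ran from 0.783 for H2-Eb1 to 0.84 for Cd74. The intervals are wide, and those of H2-Aa, H2-Eb1, Cd74 and Ciita include both 0 and a fall by 1 on the log2 scale.

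Spread between libraries was largest under antimiR-21. The coefficient of variation of the 9 genes was 20.8% to 42.5% in KO_antimiR21, 4.27% to 33.7% in KO_PBS and 4.90% to 36.4% in WT. KO_antimiR21 3 was the lowest library of its group for 9 of 9 genes, and KO_antimiR21 2 the highest for 8 of 9, H2-Eb1 being the exception. Without KO_antimiR21 3 the members' log2 fold changes over KO_PBS ran from -0.22 to 0.19, and without KO_antimiR21 2 from -0.79 to -0.10. Within the L5 libraries, where KO_PBS 3 is the lone library of its group and was assumed to vary like the others, they ran from -0.95 for Ciita to 0.21 for B2m, with 0 members called in edgeR (adjusted p = 0.999).

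Per kilobase of transcript, the order of the genes differed between knockout and WT kidneys. Lengths were those of the longest coding transcript in GENCODE, so the order rests on that choice. Cd74 averaged 1206 CPM per kb in KO_antimiR21 and 1542 in KO_PBS, against 284 in WT. B2m averaged 842 CPM per kb in KO_antimiR21 and 830.0 in KO_PBS, against 362 in WT. Cd74 was above B2m in 2 of 3 KO_antimiR21 libraries, 3 of 3 KO_PBS libraries and 0 of 3 WT libraries, so that the most abundant of the 9 transcripts was the class II invariant chain in most knockout kidneys and the class I light chain in WT kidneys. H2-Aa averaged 560.3 CPM per kb in KO_antimiR21, 731 in KO_PBS and 98.7 in WT, and H2-K1 averaged 509, 528 and 164 in the same groups. H2-Aa exceeded H2-K1 in 2 of 3 KO_antimiR21 libraries, 3 of 3 KO_PBS libraries and 0 of 3 WT libraries. H2-Ab1 exceeded H2-K1 in 3 of 3 KO_PBS libraries, but in 1 of 3 in both KO_antimiR21 and WT. Its level was 0.810 to 1.16 times that of H2-K1 in KO_antimiR21 and 0.765 to 1.15 times in WT. H2-Aa and its partner H2-Ab1 also changed places. H2-Aa per kb was 1.03 to 1.14 times H2-Ab1 in KO_antimiR21 and 1.02 to 1.26 times in KO_PBS, but 0.577 to 0.753 times in WT. H2-K1 was above H2-D1 in all 9 libraries. At the low end, Tap1 averaged 8.56, 10.9 and 2.82 CPM per kb in KO_antimiR21, KO_PBS and WT, and Ciita 4.78, 6.69 and 1.06. A difference between neighbours in this order was not tested. WT 2, the male WT library, had the same order as the female WT libraries for Cd74 and B2m, for H2-Aa and H2-K1 and for H2-Aa and H2-Ab1.

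The balance of the classes was taken per library as the mean log2 CPM of H2-Aa, H2-Ab1 and H2-Eb1 minus that of H2-K1 and H2-D1. It is a value to set between libraries, since it is not per length. It stood at 0.09, -0.15 and -0.55 in KO_antimiR21 1, 2 and 3, at 0.30, 0.07 and 0.22 in KO_PBS and at -0.63, -0.98 and -0.97 in WT. The group means were -0.21 ± 0.32, 0.20 ± 0.12 and -0.86 ± 0.20 (SD, n = 3 each). Knockout and WT libraries did not overlap, though KO_antimiR21 3 lay near WT 1. The male WT 2 had the lowest value of the 9, and within L4 the groups did not overlap.

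Ratios of CPM between partner genes were set side by side in the same way, in 21 exact two-sided permutation tests. With 3 libraries against 3 the smallest p these allow is 0.1 before any adjustment, so none could pass at 0.05. The smallest p obtained after Benjamini-Hochberg adjustment was 0.191. H2-Aa over H2-Ab1 averaged 1.01 ± 0.054 in KO_antimiR21 and 1.04 ± 0.113 in KO_PBS, against 0.642 ± 0.091 in WT (SD; 3 libraries each). H2-Eb1 over H2-Ab1 averaged 1.02 ± 0.085 in KO_antimiR21 and 1.10 ± 0.108 in KO_PBS, against 0.663 ± 0.098 in WT. Both ratios were higher in every knockout library than in every WT library. Cd74 over H2-Ab1 averaged 2.72 ± 0.064 in KO_antimiR21 and 2.76 ± 0.098 in KO_PBS, against 2.29 ± 0.048 in WT, again without overlap. B2m over the sum of the heavy chains was the ratio that stood lower in the knockouts, at 0.521 ± 0.048 in KO_antimiR21 and 0.491 ± 0.054 in KO_PBS, against 0.658 ± 0.110 in WT. The gap was narrow there, with KO_antimiR21 3 at 0.574 and WT 3 at 0.583. H2-K1 over H2-D1 averaged 1.39 ± 0.072 in KO_antimiR21 and 1.42 ± 0.140 in KO_PBS, against 1.24 ± 0.029 in WT. For that ratio KO_PBS 2 at 1.27 lay near WT 1 at 1.26. Each of these 5 ratios reached the smallest p in both comparisons with WT, which says only that the libraries did not overlap. Between the knockout groups each of them overlapped. The male WT 2, at 0.701, 0.704, 2.26, 0.607 and 1.21 for these ratios in the order given, stood on the same side of the knockout libraries as the female WT libraries, and within L4 none of the 5 overlapped. Ciita as a share of H2-Ab1 averaged 4.70% in KO_antimiR21, 5.14% in KO_PBS and 3.59% in WT, with all groups overlapping. In L5, which holds no WT, the knockout groups could be compared with 1 KO_PBS library only. Tap1 as a share of B2m averaged 3.41% in KO_antimiR21 and 4.54% in KO_PBS, against 2.67% in WT. KO_PBS lay above WT without overlap on this measure, while KO_antimiR21 overlapped WT.

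**Figure D3:**
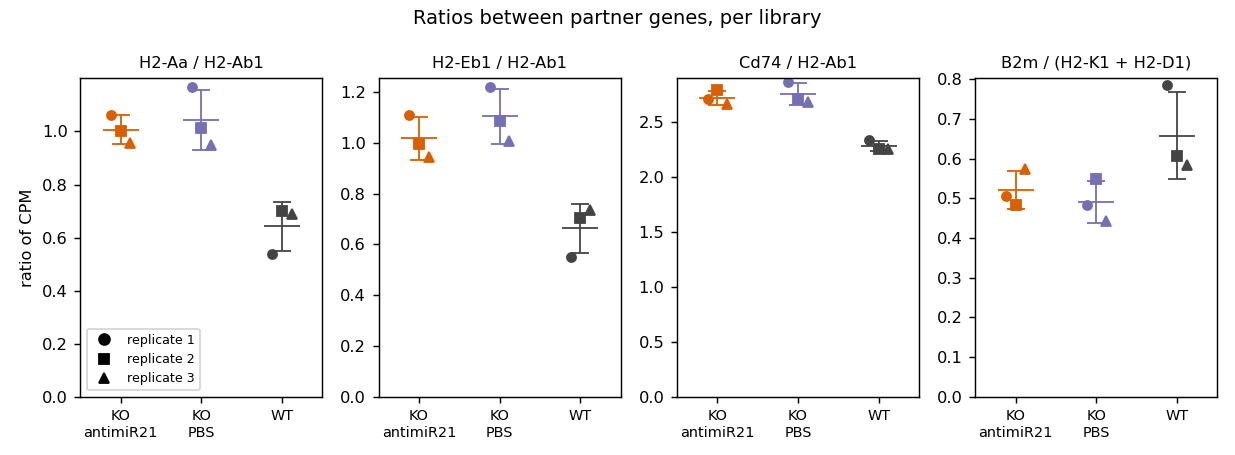
Ratios of CPM (vertical axis, linear) between partner genes in each library. Symbols mark replicates 1, 2 and 3, and the long dash with its bar is the mean ± SD of 3 libraries. H2-Aa, H2-Eb1 and Cd74 relative to H2-Ab1 lie above WT in all knockout libraries. B2m relative to the heavy chains lies below WT, narrowly so for KO_antimiR21 3.

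Across the 9 libraries the members moved closely together, and the gap between knockout and WT libraries enters all of these values. As a description, Pearson's r of log2 CPM was 0.9995 between H2-Aa and H2-Eb1, 0.9994 between H2-Ab1 and Cd74 and 0.9956 between H2-K1 and H2-D1. The lowest r was 0.9207, between H2-K1 and Ciita. Among 12466 other genes that averaged 2 or more on the log2 CPM scale, the 5 most like each member were read off. Slc11a1, a metal transporter of phagocytes, Pscd4 and Il10ra, the interleukin-10 receptor alpha chain, stood among the 5 of both H2-Aa and H2-Eb1 (r of 0.9981 for Slc11a1 with H2-Eb1). H2-Ab1 and Cd74 shared Cplx2, Tgfbi, Ikbke and Cxcl16, a chemokine (r of 0.9967 for Cplx2 with Cd74). H2-K1 and H2-D1 shared Plac8, Trem2, a receptor of myeloid cells, AK028077 and Vav1. For B2m the nearest was Igtp at 0.9972, an interferon-inducible GTPase, followed by Ifi47 at 0.9887 and Iigp1 at 0.9879, which are of the same kind, and by Ccna2 and Herc5. For Tap1 it was Tapbpl, a chaperone of the class I pathway, at 0.9931, before Lgals3bp, Mmp14, Sulf2 and Hexa. For Ciita it was Ccr2, a chemokine receptor of monocytes, at 0.9879, before Nrg1, Sptlc2, Cftr and Asahl. These libraries share their groups, so no p is given.

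Other genes of the class I pathway were taken from a list of 13, of which 12 were found and tested and Nlrc5 was not matched. The counts of this and the following lists are from the fit without sex, since 0 genes were called with it. Beside all these counts, 14.6% of all genes were called higher and 9.85% lower in KO_PBS over WT. In KO_antimiR21 over WT 6.72% were called higher and 0.427% lower. In KO_PBS over WT 8 rose and 0 fell, with a median log2 fold change of 0.91. Against the same WT libraries 6 rose and 0 fell in KO_antimiR21, with a median of 0.78. Psmb8, a subunit of the immunoproteasome, stood at 39.3, 44.1 and 17.7 CPM in KO_antimiR21 and at 50.01, 35.1 and 32.9 CPM in KO_PBS, against 4.56, 6.01 and 5.67 CPM in WT. It rose by 2.64 in KO_antimiR21 and by 2.86 in KO_PBS on the log2 scale (edgeR adjusted p = 0.00441 and 0.00147). Tapbpl rose by 1.08 in KO_antimiR21 and by 1.25 in KO_PBS, and Tap2, the partner of Tap1, by 1.20 and 1.38 (edgeR adjusted p of 0.00288 to 0.0113). Named after their values were seen, the chaperones of the endoplasmic reticulum that serve many proteins did not pass the test in either comparison, Calr, Canx and Pdia3 having log2 fold changes of 0.11, -0.20 and 0.01 in KO_PBS.

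The list of class I-like and nonclassical heavy chains held 26 genes, of which 20 were found and 18 tested. In KO_PBS over WT 7 rose and 1 fell, with a median log2 fold change of 0.44. KO_antimiR21 over WT had 7 higher and 0 lower, with a median of 0.50. H2-M2 averaged 5.51 CPM in KO_antimiR21 and 6.67 CPM in KO_PBS, against 0.514 CPM in WT (log2 fold changes of 3.41 and 3.68, edgeR adjusted p = 0.00525 and 0.00182). H2-Q8 rose by 1.75 in KO_antimiR21 and 1.72 in KO_PBS, and H2-Q1 by 1.40 in both (edgeR adjusted p of 0.00195 to 0.00947). Sequence shared among these genes makes single values uncertain. The gene that fell was H2-Bl, at -1.37 in KO_PBS (edgeR adjusted p = 0.0168), named after its values were seen. Fcgrt, the neonatal Fc receptor, a class I-like chain that also pairs with B2m, stood at -0.14 in KO_PBS and did not pass.

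Of 13 other genes of the class II pathway, 12 were tested. In KO_PBS over WT 10 rose and 0 fell, with a median log2 fold change of 1.66, and in KO_antimiR21 over WT 8 rose and 0 fell, with a median of 1.55. Ctss, the cathepsin that trims the invariant chain, stood at 72.7, 134 and 48.6 CPM in KO_antimiR21 and at 166, 121 and 114 CPM in KO_PBS, against 5.65, 12.7 and 5.83 CPM in WT. Its log2 fold change was 3.40 ± 0.45 in KO_antimiR21 and 4.05 ± 0.47 in KO_PBS (edgeR adjusted p = 0.004415 and 0.00135). H2-DMa and H2-DMb1, chains of the molecule that exchanges the invariant chain's peptide for antigen, rose by 1.86 and 1.43 in KO_antimiR21 and by 2.10 and 1.63 in KO_PBS (edgeR adjusted p of 0.00189 to 0.00661). H2-Ea, the usual partner of H2-Eb1, was listed at 0 in all 6 knockout libraries and at 1, 14.5 and 2 expected counts in WT 1, 2 and 3. Mice of the H2-b haplotype are known to carry a deletion that silences H2-Ea, and the labels do not give the haplotype of these mice.

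Of 7 genes tested that encode DNA-binding partners of Ciita, 1 rose and 1 fell in KO_PBS over WT, shares near those of all genes (14.6% higher and 9.85% lower), and 0 were called in KO_antimiR21 over WT, where 0.427% of genes were called lower. The medians were -0.10 and -0.13. Rfx5 stood at 33.6, 37.2 and 25.4 CPM in KO_antimiR21 and at 33.2, 33.8 and 36.4 CPM in KO_PBS, against 23.9, 21.5 and 21.4 CPM in WT. It rose by 0.63 in KO_PBS (edgeR adjusted p = 0.0179) and stood at 0.53 in KO_antimiR21 (adjusted p = 0.0792). Nfyc, a subunit of NF-Y, fell by 0.66 in KO_PBS (edgeR adjusted p = 0.0289) and stood at -0.33 in KO_antimiR21. Rfxank, a subunit of the RFX complex, was at -0.28 and did not pass.

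**Figure D4:**
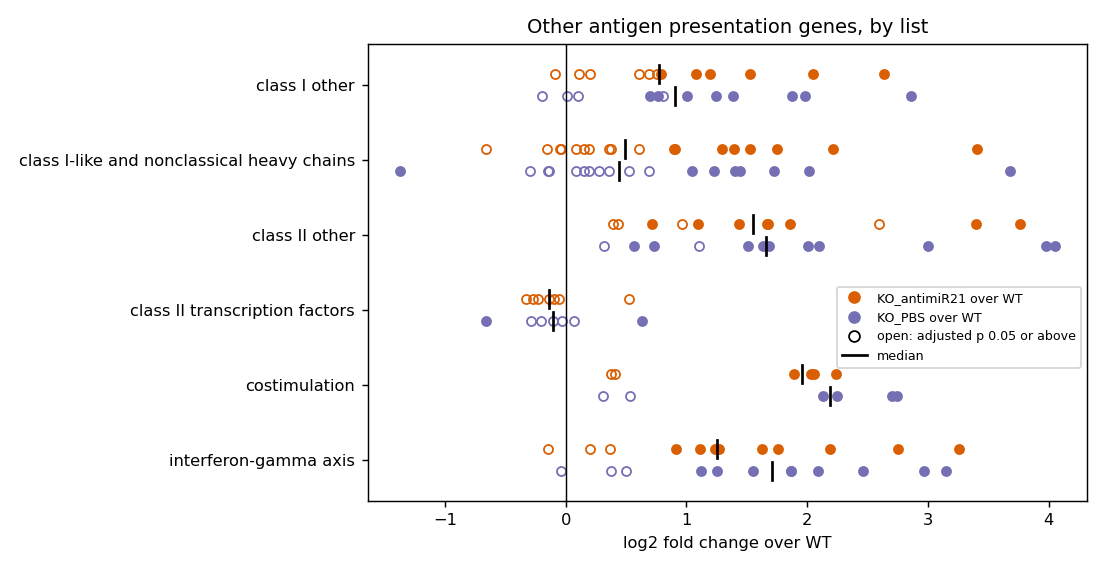
Log2 fold change over WT (horizontal axis) of each tested gene in 6 lists, for KO_antimiR21 (orange) and KO_PBS (violet). Filled points passed at an edgeR adjusted p under 0.05, open points did not, and black ticks are list medians. Class II pathway genes lie mostly to the right, and class II transcription factors lie around 0.

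T cell activation needs costimulation beside the MHC. The list for it held 8 genes, among them Cd274 and Pdcd1lg2, whose products are inhibitory ligands. Of the 8 genes 6 were tested, and 4 rose and 0 fell in each comparison with WT. The medians were 1.96 in KO_antimiR21 and 2.19 in KO_PBS. Cd274 stood at 0.31 in KO_PBS and did not pass (edgeR adjusted p = 0.247), and Pdcd1lg2 was not tested. Icam1, the adhesion partner of the T cell integrin LFA-1, averaged 90.4 CPM in KO_antimiR21 and 128 CPM in KO_PBS, against 19.1 CPM in WT (log2 fold changes of 2.24 and 2.74, edgeR adjusted p = 0.00417 and 0.00135). Cd86, a ligand of CD28, averaged 6.22, 9.90 and 1.51 CPM in KO_antimiR21, KO_PBS and WT, and Cd40 averaged 9.17, 11.8 and 2.47 CPM. Both rose in both comparisons. Of 13 genes of the interferon-gamma axis, which governs Ciita in many cells, 12 were tested, and 9 rose and 0 fell in each comparison. Irf1, a transcription factor induced by interferon, rose by 1.76 in KO_antimiR21 and 2.09 in KO_PBS (edgeR adjusted p = 0.00436 and 0.00135). Ifngr1, a receptor chain, rose by 1.27 and 1.87, and Gbp2, an interferon-induced GTPase, by 2.19 and 2.46. Ifng itself was too low to test, at 0 CPM in all WT libraries and 0.0274 to 0.110 CPM in knockout libraries. In the lists described here and in the marker lists below, 0 genes were called in KO_antimiR21 over KO_PBS.

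Markers of leukocytes moved with the class II genes. Of 12 macrophage markers 11 rose and 0 fell in each comparison with WT. Their summed level was 696 to 1622 CPM in KO_antimiR21 and 1358 to 1525 CPM in KO_PBS, against 200.1 to 286 CPM in WT. Cx3cr1, C1qb and C1qc rose by 3.55, 3.58 and 3.65 in KO_PBS (edgeR adjusted p of 0.00135 each), and Csf1r, the one that did not pass, stood at 0.29. Of 9 dendritic cell markers 8 were tested, and 5 rose in KO_antimiR21 and 7 in KO_PBS, with log2 fold changes in KO_PBS of 4.17 for Itgax, 2.56 for Flt3 and 2.55 for Mgl1 (the older symbol of Clec10a). Their sums were 32.5 to 69.0 CPM in KO_antimiR21 and 68.1 to 73.5 CPM in KO_PBS, against 15.2 to 18.1 CPM in WT. Of 11 T and NK cell markers 9 were tested, and 7 rose in KO_antimiR21 and 9 in KO_PBS, with sums of 13.2 to 26.7, 20.7 to 24.9 and 5.27 to 6.58 CPM in KO_antimiR21, KO_PBS and WT. Cd3g, a chain of the T cell receptor complex, rose by 2.97 in KO_PBS, and Zap70 and Lck, kinases of its signalling, by 2.39 and 1.84. Of 7 B cell markers 5 were tested, all with estimates above 0 in both comparisons, and 0 passed, 2 of them having an unadjusted p under 0.05 in KO_PBS, and their sums of 4.70 to 5.55, 4.85 to 6.44 and 2.57 to 6.58 CPM overlapped in all groups. Fcrla, Blk and Cd79a stood at 1.32, 1.36 and 0.46 in KO_PBS. Pax5 and Ms4a1, defining B cell markers, and Ncr1 and Klrb1c, markers of NK cells, averaged under 1 CPM in each group and were not tested. The part of these cells in the MHC values was not tested.

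Relative to the mean log2 CPM of 25 tested macrophage, dendritic and B cell markers, the mean log2 CPM of the class II genes stood at 5.39, 5.44 and 5.09 in KO_antimiR21 1, 2 and 3, at 5.54, 5.21 and 5.54 in KO_PBS and at 5.52, 4.95 and 5.05 in WT. All groups overlapped on this scale. Relative to the macrophage markers alone, an alternative chosen after seeing the data, it stood at 3.07, 2.74 and 2.75 in KO_antimiR21, at 2.77, 2.61 and 2.87 in KO_PBS and at 3.83, 3.07 and 3.21 in WT. There KO_PBS lay below WT without overlap, while KO_antimiR21 overlapped WT.

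**Figure D5:**
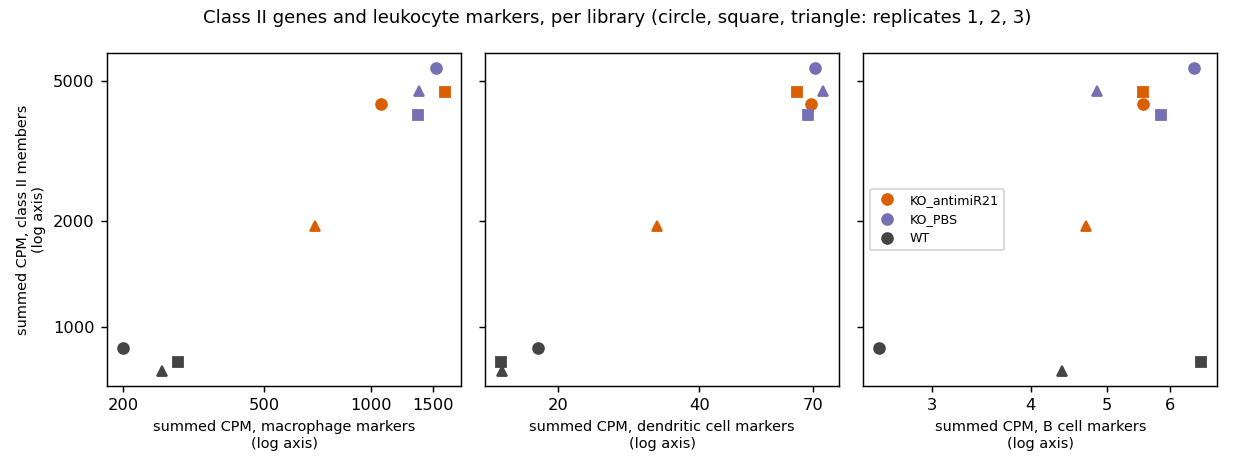
Summed CPM of the 5 class II genes (vertical, log axis) against summed CPM of macrophage, dendritic cell and B cell markers (horizontal, log axes) in each library. Colours mark KO_antimiR21, KO_PBS and WT. KO_antimiR21 3 lies between WT and the other knockout libraries for macrophage and dendritic markers, and B cell sums overlap in all groups.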

How the data were processed

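Expected counts per gene symbol were made by the authors with Bowtie and RSEM against mm9, per the submitters' processing notes, and 9848 to 10931 values per library were not whole. No source used here states versions, annotation or strand, and overlapping genes were not separated. The log2 matrix deposited by the authors was log2 CPM with offsets of 0.5 on counts and 1 on library size, shifted by a constant in each library. Counts were rounded and filtered with filterByExpr, scaled by TMM and fitted with the quasi-likelihood test of edgeR 4.0.16 (R 4.3.3) in 1 model with 3 group means, for the 3 comparisons. Two-sided p-values were adjusted over all 17315 genes (Benjamini-Hochberg) and judged at 0.05. An adjusted p is from edgeR unless another tool is named. Intervals for fold changes are 95%. Depth and counting error limit low genes.

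Groups and replicate numbers came from the titles. The members and lists were chosen with earlier results of these data known. Beside the members, the text names the 3 tested genes of each list with the lowest p in KO_PBS over WT, the genes most like each member (the 5 nearest, or those that a pair of members share) and Col4a3. Calr, Canx, Pdia3, H2-Bl, Fcgrt, H2-Ea, Ifng, Csf1r, Pax5, Ms4a1, Ncr1 and Klrb1c lie outside this rule, as do Cd274 and Pdcd1lg2. They were named after their values were seen. Older symbols were matched through synonyms (Mgl1 for Clec10a). Sex was called from Y-linked genes at 10 CPM. Alternatives used DESeq2 1.42.0, limma 3.58.1, other scalings and filters, single libraries left out, sex, the library code and a replicate block. Coordinates are of GRCm38.p6, not of mm9. Ratios were tested by exact permutation. Python 3.11.15, numpy 2.4.6, pandas 2.3.3 and matplotlib 3.10.9 were used.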

Additional observations from a re-analysis of the deposited data

How the results depend on the processing

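With each library left out in turn, 9 members remained called in both comparisons with WT and 0 in KO_antimiR21 over KO_PBS, while the number of all genes called, 4226 in KO_PBS over WT, ran from 2423 (without KO_PBS 1) to 4332, with 2584 without KO_PBS 2, and the 1238 in KO_antimiR21 over WT from 667 (without WT 3) to 1602, with 679, 758 and 795 without KO_antimiR21 2, WT 1 and KO_antimiR21 1. Sex as a covariate and male libraries alone each left 0 members and 0 genes called in both comparisons with WT, and the library code as a covariate 0 members and 0 genes in KO_antimiR21 over WT. Both choices about sex set the knockout libraries against WT 2 alone, the only male WT library. The cause of the lost calls was not tested. All genes called in KO_antimiR21 over WT numbered 2011 with DESeq2 and 707 with only the compared groups fitted, and those in KO_antimiR21 over KO_PBS 18 with DESeq2.

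In KO_antimiR21 over KO_PBS the sign of near-zero log2 fold changes turned. B2m stood at -0.10 with library size as the only scaling and ran from -0.10 to 0.19 over left-out libraries, H2-K1 from -0.26 to 0.18 and H2-D1 from -0.18 to 0.19. H2-D1 stood at 0.0268 with the library code as a covariate and at 0.0266 within L5. Library size alone moved the median of all genes in KO_PBS over WT to 0.25 and that of the members to 2.45, and its split of calls was 3753 higher and 904 lower, against 2521 and 1705. Class II genes over leukocyte markers averaged 5.31, 5.43 and 5.17 in KO_antimiR21, KO_PBS and WT, and over macrophage markers alone 2.85, 2.75 and 3.37.

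The replicate block left 9, 0 and 9 members called in KO_PBS over WT, KO_antimiR21 over KO_PBS and KO_antimiR21 over WT, with 3205, 0 and 923 genes in all. The labels do not state that the numbers pair the samples. Same-numbered deviations correlated at -0.328, 0.167 and -0.367 in the first comparison and at 0.438, -0.092 and 0.146 in the second. In the third they correlated at -0.249, 0.029 and -0.211. Differently numbered ones ran from -0.123 to 0.413, from -0.357 to 0.332 and from -0.294 to 0.44 in the same order. With 3 libraries per group these values cannot settle whether the samples were paired.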

Other observations

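Markers of resident kidney cells moved the other way from the class II genes or did not pass the test. Of 9 proximal tubule markers 0 rose and 7 fell in KO_PBS over WT, where 9.85% of all genes were called lower, and 0 were called in KO_antimiR21 over WT, where 0.427% were. Their summed level was 3814 to 7805 CPM in KO_antimiR21 and 1585 to 4948 CPM in KO_PBS, against 9452 to 14303 CPM in WT. Miox, the enzyme that opens myo-inositol, stood at 751, 208 and 725 CPM in KO_antimiR21 1, 2 and 3 and at 92.6, 326 and 301 CPM in KO_PBS, against 2374, 1273 and 1817 CPM in WT. It fell by 2.92 on the log2 scale in KO_PBS (edgeR adjusted p = 0.00981). Aqp1, a water channel, and Slc3a1, a subunit of an amino acid transporter, fell by 1.49 and 1.15 in KO_PBS.

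Of 9 markers of other nephron segments 3 fell and 0 rose in KO_PBS over WT, where 9.85% of all genes were called lower. Among them were Slc12a1, the salt transporter of the thick ascending limb, at -1.76, and Slc4a1, the anion exchanger of acid-secreting cells, at -2.61. The third was Atp6v1b1, a proton pump subunit, at -1.13. In KO_antimiR21 over WT 0 were called. Of 8 endothelial markers 0 rose and 1 fell in KO_PBS over WT, a share near the 9.85% of all genes called lower. The 1 that fell was the receptor Tek, at -0.57 (edgeR adjusted p = 0.041). In KO_antimiR21 over WT 0 endothelial markers were called, where 0.427% of all genes were called lower. Emcn and Pecam1 stood at -0.69 and -0.34 in KO_PBS and did not pass. With sex as a covariate 0 genes were called in either comparison with WT, these markers included.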
